A study of Mus musculus with 6 samples.

Results

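The 10 genes described here encode the myosin chains of the atrial and ventricular sarcomere and 2 proteins that bind them: Myl7, Myl4, Myl2, Myl3, Myl1, Myh6, Myh7, Myh7b, Mybphl and Mybpc3. They were taken by gene name from 57180 genes in the deposited matrix, where they are represented by 56 of 149132 transcripts. The selection was made after the levels of these genes in the same hearts were known, from their difference between the groups. Their levels, fold changes and ratios are therefore given as a description without a test.

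Myosin in the heart is built from a pair of heavy chains, each carrying an essential and a regulatory light chain, and the light chains stiffen and tune the lever arm of the motor. Atrial and ventricular cardiomyocytes use different light chain genes, so the messages of these genes tell the chambers apart in healthy tissue. Myh6 is the main heavy chain of both chambers in the adult mouse, while Myh7 is the slow heavy chain of the fetal ventricle.

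The data are RNA sequencing libraries of 6 hearts of male mice of the inbred strain C57BL/6N, 3 per group, each heart giving a library of its own. For the heat stroke (HS) group, animals of 6 to 8 weeks stayed in a chamber at 40 °C and a humidity of 60 to 65% up to a core temperature of 42 °C. Sham mice stayed at 22 to 25 °C, and both groups were without food and water. The labels name no genetic change or drug for either group, the time from 42 °C to collection is not stated, and the sources do not say which chambers of the heart were taken. The label of the tissue is heart, whereas the extraction text speaks of cell lines. The sources do not describe litter, day or batch, so the spread between hearts may hold technical differences.

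The libraries held 22098531 to 25855918 estimated counts. Levels are given as counts per 1e6 of the library total (CPM), and 3 counts, the limit that a count of 0 allows, were 0.116 to 0.136 CPM. The 10 genes took 2.60 to 2.69% of all counts in the sham group, against 3.14%, 3.00% and 2.15% in HS hearts 1 to 3. HS heart 3 stood apart from the others in its share of mitochondrial ribosomal RNA, at 5.55% of counts against 2.75% and 3.16% in HS hearts 1 and 2 and 1.67 to 1.69% in the sham hearts. Its part in the levels below was not tested.

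The 5′ flanks of 3 of the genes are shown because they are the regions from which the atrial and ventricular messages start. Each run ends at the base before the start of the transcript that took most counts of its gene. They are RefSeq promoter sequences on GRCm38.p6 for Myl7 (chr11:5898783-5899032, minus strand), Mybphl (chr3:108364661-108364910, plus strand) and Myl3 (chr9:110763428-110763645, plus strand). Capitals mark matches on either strand to the CArG box, the site of serum response factor, to the M-CAT element CATTCC, the site of TEAD factors, and to the GATA site AGATAA.
Myl7: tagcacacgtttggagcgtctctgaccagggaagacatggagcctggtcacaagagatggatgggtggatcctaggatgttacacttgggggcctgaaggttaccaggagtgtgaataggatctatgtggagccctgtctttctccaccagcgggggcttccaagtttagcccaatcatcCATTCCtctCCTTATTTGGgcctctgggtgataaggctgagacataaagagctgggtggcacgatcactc
Mybphl: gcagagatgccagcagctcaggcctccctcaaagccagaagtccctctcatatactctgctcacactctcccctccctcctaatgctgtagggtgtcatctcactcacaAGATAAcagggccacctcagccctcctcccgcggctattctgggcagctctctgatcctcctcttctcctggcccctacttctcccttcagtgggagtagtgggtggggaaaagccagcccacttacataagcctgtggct
Myl3: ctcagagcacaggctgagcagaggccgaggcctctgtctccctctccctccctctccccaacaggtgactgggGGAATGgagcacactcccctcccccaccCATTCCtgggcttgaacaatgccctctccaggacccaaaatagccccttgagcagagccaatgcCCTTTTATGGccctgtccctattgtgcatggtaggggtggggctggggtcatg
Myl7 and Myl3 each held a CArG box and at least 1 M-CAT element, which do not overlap, and Mybphl held neither within these bases. The CArG box of Myl7 lies at -61 to -52 from the RefSeq start and that of Myl3 at -85 to -76. Over the 250 bases before the starts of 32851 RefSeq promoters, a CArG box occurred in 1.47%, the M-CAT letters in 12.6% and the GATA letters in 9.99%. A match is a match of letters and not evidence of a bound site. The tabulated starts of Myl4, Myl2 and Myl1 lie 26618, 7762 and 9702 bases from the start of their main transcript, and their flanks are not shown.

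Both atrial light chains and the atrial binding protein were abundant in HS hearts 1 and 3 and at most 1.78 CPM in the other 4 hearts. Myl7 (ENSMUSG00000020469, chromosome 11, 5896637 to 5898782) encodes the regulatory light chain of the atria. Its level was 0.826, 0 and 0.0852 CPM in sham hearts 1 to 3 and 700.1, 0.157 and 425 CPM in HS hearts 1 to 3. These values rest on 20, 0 and 2 counts for the sham group and 18102, 4 and 9393 counts for the HS group. HS heart 2 lay within the sham range, so the groups overlapped. Fitted by edgeR after TMM normalization, as are all fold changes here, the log2 fold change of HS against sham was 10.26 (standard error 2.65). It was 12.94 without sham heart 1, 9.58 without HS heart 1 and -0.91 with HS heart 2 as the only HS heart.

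Myl4 (ENSMUSG00000061086, chromosome 11, 104550663 to 104595753) encodes the essential light chain of the atria, which the fetal ventricle and embryonic skeletal muscle also use. It was at 1.78, 0.342 and 0.895 CPM in the sham group, against 682, 0.942 and 391 CPM in the HS group. HS heart 2 again fell among the sham hearts. The log2 fold change was 8.49 (standard error 2.15), 9.16 without sham heart 1, 7.77 without HS heart 1 and -0.062 with HS heart 2 alone. In HS hearts 1 and 3, 97.3% and 99.2% of its counts came from Myl4-202, the protein-coding transcript of 900 bases.

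Mybphl (ENSMUSG00000068745, chromosome 3, 108364911 to 108380057) encodes a myosin-binding protein related to Mybpc3 and found in the atria and the conduction system. It stood at 0.206, 0.0428 and 0 CPM in the sham group, against 64.8, 0.196 and 27.8 CPM in the HS group. Its counts were too low in most hearts to pass the filter, so it was the only one of the 10 without a fold change in the main fit. Without the low count filter its log2 fold change was 8.43. The 3′ part of Mybphl overlaps Gm12522 on the other strand, which had 2, 0 and 0 counts in the sham group, against 50, 1 and 25 in the HS group, so the counts of this pair may be shared.

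**Figure D1:**
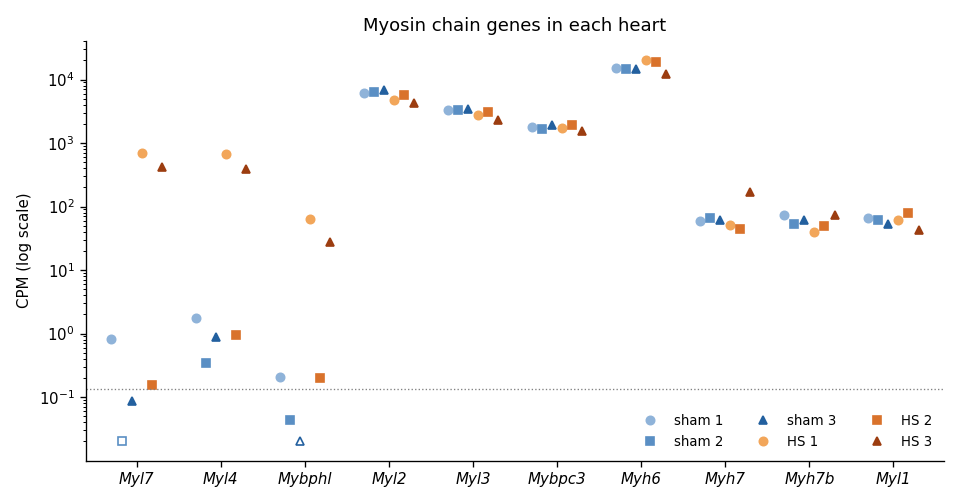
Level of each of the 10 genes in CPM on a log axis, with 1 point per heart (blue, sham hearts 1 to 3; orange, HS hearts 1 to 3). Open symbols at 0.02 stand for a count of 0 and the dotted line is the highest 3-count limit (0.136 CPM). Myl7, Myl4 and Mybphl are high in HS hearts 1 and 3 and low in the other 4 hearts, while the other genes show no such gap between hearts.

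The ventricular light chains were lower in every HS heart than in every sham heart. Myl2 (ENSMUSG00000013936, chromosome 5, 122100951 to 122113472), the ventricular regulatory light chain, was at 6159, 6368 and 6828 CPM in the sham group, against 4811, 5688 and 4229 CPM in the HS group. Relative to the sham mean the HS hearts stood at 0.746, 0.882 and 0.655. The log2 fold change was -0.35 (standard error 0.12) over all hearts and -0.15 with HS heart 2 alone.

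Myl3 (ENSMUSG00000059741, chromosome 9, 110741861 to 110769798), the essential light chain of the ventricle and of slow skeletal muscle, gave the same order. Its level was 3286, 3375 and 3436 CPM in the sham group and 2723, 3101 and 2267 CPM in the HS group. The log2 fold change was -0.28 (standard error 0.11), and HS heart 2 was again the HS heart nearest to the sham hearts. Myl2 and Myl3 were the 2 genes of 9 tested here with all HS hearts below all sham hearts, and none had all HS hearts above. Among all 14717 genes tested, the shares were 11.0% and 9.06%. As the genes were selected on this contrast, nothing is read from these counts.

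Of the 14717 genes, 9 passed an adjusted p of 0.05 in edgeR's quasi-likelihood test, or 0.0612%. An unadjusted p under 0.05 was reached by 13.6% of the genes, 8.83% with a higher and 4.76% with a lower level, and DESeq2 called 2.39%, 1.86% higher and 0.523% lower. No call is given for the myosin genes, since this contrast was used to choose them. The median log2 fold change was 0.07 over the 9 myosin genes tested and 0.01 over all genes tested.

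Expressed as a ratio of levels per transcript length, Myl7 stood to Myl2 as 0.164 to 1 in HS heart 1 and as 0.113 to 1 in HS heart 3. In the sham hearts and HS heart 2, this ratio was at most 0.150 per 1000. Myl4 stood to Myl3 as 0.256 in HS heart 1 and 0.179 in HS heart 3, against at most 0.475 per 1000 in the other 4 hearts. The ratio of both atrial to both ventricular light chains was 0.239, 0.0222 and 0.0765 per 1000 in the sham hearts. In the HS hearts it was 190 per 1000, 0.103 per 1000 and 131 per 1000. HS heart 2 lay inside the sham range for each of these light chain ratios.

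Myl7 and Myl4 kept similar proportions to each other in both hearts with high levels, with a ratio of Myl7 to Myl4 per length of 1.59 in HS heart 1 and 1.66 in HS heart 3. In the other 4 hearts this ratio rested on 0 to 43 counts per gene. As a share of its class, Myl7 made up 14.1% and 10.2% of regulatory light chains in HS hearts 1 and 3, and Myl4 20.0% and 14.9% of essential light chains. Counted without regard to length, the share of Myl7 was 12.7% in HS heart 1 (95% Clopper-Pearson interval 12.5 to 12.9) and 9.13% in HS heart 3 (8.96 to 9.31). In sham heart 2, with 0 of these counts, the interval reached up to 0.00248%. Such intervals cover counting error only.

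Mybpc3 (ENSMUSG00000002100, chromosome 2, 91118144 to 91136516), the cardiac myosin-binding protein C of both chambers, varied little. It was at 1779, 1684 and 1931 CPM in the sham group, against 1708, 1918 and 1549 CPM in the HS group, with a log2 fold change of -0.01 (standard error 0.11). Per length, Mybphl took 11.0% and 5.54% of the binding protein class in HS hearts 1 and 3, and 0.0334% in HS heart 2. The proportion in HS heart 3 relative to HS heart 1 was thus lower for Mybphl than for Myl7 or Myl4.

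**Figure D2:**
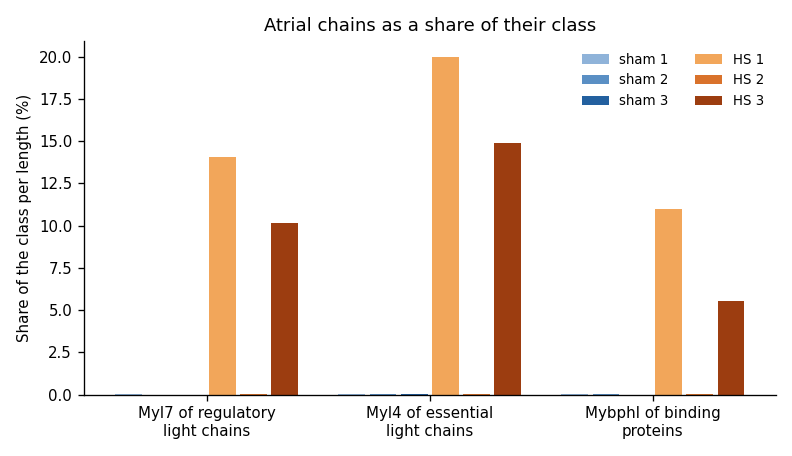
Share of each atrial gene in its class per transcript length, in percent, with 1 bar per heart (blue, sham; orange, HS). Bars appear only for HS hearts 1 and 3, at 14.1% and 10.2% for Myl7, 20.0% and 14.9% for Myl4 and 11.0% and 5.54% for Mybphl; in the other 4 hearts every share was at most 0.0464%, too low to be seen.

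Myh6, the alpha heavy chain, was the most abundant message of the 10 by counts, and its HS hearts lay on both sides of the sham hearts. Myh6 (ENSMUSG00000040752, chromosome 14, 54941921 to 54966927) was at 15027, 14416 and 14482 CPM in the sham group, against 20546, 19122 and 12293 CPM in the HS group. HS hearts 1 and 2 were above the sham range and HS heart 3 below it. The log2 fold change was 0.27 (standard error 0.14).

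The variation of Myh6 between hearts lay mostly in 1 of its transcripts. Myh6-201 and Myh6-205 share all coding exons (5814 coding bases) and differ in their 5′ and 3′ ends. Myh6-201 was at 10141, 9562 and 9597 CPM in the sham group, against 15237, 13784 and 6707 CPM in the HS group. Myh6-205 was at 4228, 4246 and 4284 CPM in the sham group, against 4648, 4585 and 4819 CPM in the HS group. Its share of Myh6 counts was thus 39.2% in HS heart 3 against 22.6 to 29.6% elsewhere. The division of counts between such similar transcripts is an estimate whose error is unknown.

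Relative to the heavy chain, the light chains were lower in all 3 HS hearts than in any sham heart. Per length, Myl2 stood to Myh6 as 2.64, 2.88 and 3.08 in the sham group, against 1.64, 1.97 and 1.97 in the HS group. The group means were 2.87 ± 0.219 and 1.86 ± 0.193 (SD, n = 3 hearts each), and the groups did not overlap. HS heart 2, in which each atrial gene was at most 0.942 CPM, was at 0.688 of the sham mean. This is 1 heart, and the part of atrial cells in the ratio was not tested. Adding all regulatory light chains, Myl7 included, and all heavy chains left the order in place, at 2.62, 2.85 and 3.05 in the sham group, against 1.89, 1.96 and 2.15 in the HS group. The essential light chains stood to the heavy chains as 1.01, 1.10 and 1.11 in the sham group, against 0.836, 0.782 and 0.880 in the HS group.

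With only the most abundant transcript of each gene, the ratio of Myl2 to Myh6 in HS heart 3 was 5.60, within the sham range of 5.42 to 6.30. It was 2.82 and 3.65 in HS hearts 1 and 2 on that scale. HS heart 3 thus lay below the sham hearts with all transcripts of Myh6 and not with Myh6-201 alone. Levels per length give more weight to short transcripts such as Myh6-207, of 542 bases, with 2.66 to 4.89% of Myh6 counts. In counts not divided by length, Myl2 stood to Myh6 as 0.410, 0.442 and 0.471 in the sham group. In the HS group this ratio was 0.234, 0.297 and 0.344.

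**Figure D3:**
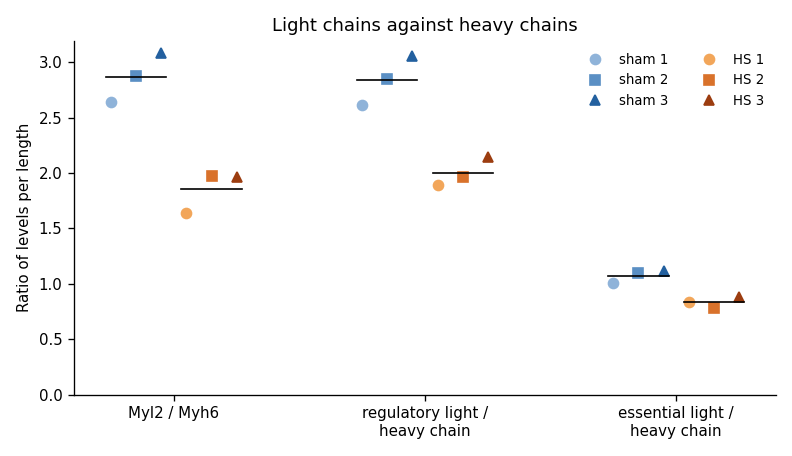
Ratio of Myl2 to Myh6, of all regulatory light chains to all heavy chains and of all essential light chains to all heavy chains, from levels per transcript length. Points are single hearts (blue, sham; orange, HS) and lines are group means; the 3 HS hearts lie below the 3 sham hearts in each ratio.

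Myh7, the beta or slow heavy chain, was high in HS heart 3 alone. Myh7 (ENSMUSG00000053093, chromosome 14, 54970684 to 54994626) lies 3756 bases from Myh6 on the same strand. It was at 58.8, 65.0 and 60.7 CPM in the sham group, against 50.6, 44.6 and 172 CPM in the HS group. HS hearts 1 and 2 were below every sham heart and HS heart 3 was 2.80 times the sham mean. The log2 fold change was 0.65 (standard error 0.58) and became -0.40 without HS heart 3. Per length, there were 4.12, 4.72 and 4.09 Myh7 per 1000 Myh6 in the sham group, against 2.61, 2.32 and 13.0 per 1000 in the HS group.

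The gene total of Myh7 joins transcripts that ordered the hearts differently. Myh7-201, the full-length coding transcript of 6135 bases, was at 25.7, 30.7 and 34.3 CPM in the sham group, against 30.9, 27.3 and 154 CPM in the HS group. Myh7-202, a retained-intron transcript that codes for no annotated protein, was at 25.1, 23.0 and 20.2 CPM in the sham group, against 14.8, 12.7 and 6.31 CPM in the HS group. HS heart 3 thus had the most Myh7-201 and the least Myh7-202 of the 6 hearts. Myh7-201 took 43.8 to 56.5% of Myh7 counts in the sham group, against 61.0%, 61.3% and 89.3% in the HS group.

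Mhrt and Gm31251, annotated on the opposite strand of Myh7, were lower in all 3 HS hearts than in any sham heart. This order was found in 11.0% of all genes tested. Mhrt, a long non-coding RNA antisense to Myh7 described in mouse hearts, was at 134, 122 and 125 CPM in the sham group, against 111, 92.1 and 45.7 CPM in the HS group. Its log2 fold change was -0.60 (standard error 0.24, adjusted p = 0.346 in edgeR), so it did not pass the test. Without HS heart 3 it was -0.35 (adjusted p = 0.101 in edgeR), and the highest adjusted p over the alternatives was 0.66. Gm31251, an antisense gene whose span covers that of Myh7-202, was at 34.4, 32.3 and 31.4 CPM in the sham group, against 21.6, 19.6 and 7.32 CPM in the HS group. Its log2 fold change was -0.998 (standard error 0.31, adjusted p = 0.295 in edgeR and 0.0439 in DESeq2). In edgeR it passed without HS heart 3 (-0.69, adjusted p = 0.00778), and the highest adjusted p over the alternatives was 0.656. With HS heart 2 as the only HS heart, the log2 fold change of Gm31251 was -0.71. Gm49130, antisense to the 3′ end of Myh6, had -0.91 (standard error 0.37, adjusted p = 0.349 in edgeR). The libraries keep the strand, but whether the counting used it is not given in the sources used here, so reads of Myh7 and of these genes may be mixed. Pth1r and Trpc4ap, protein-coding genes that overlap Myl3 and Myh7b on the other strand, had log2 fold changes of 0.30 and 0.06.

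**Figure D4:**
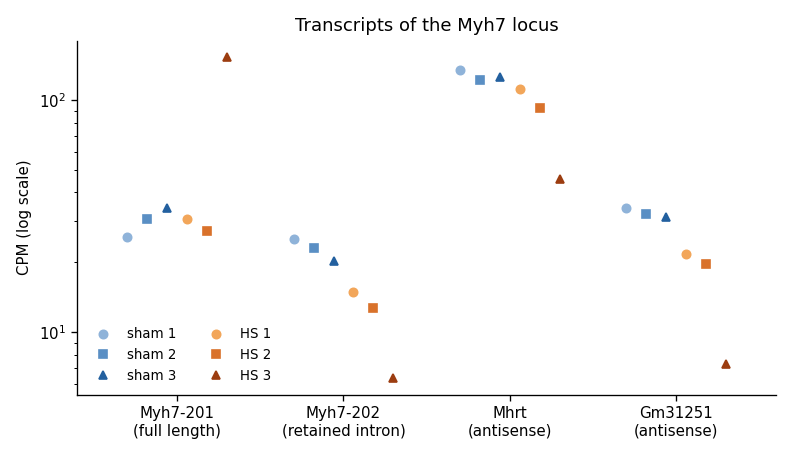
Levels of the full-length and the retained-intron transcript of Myh7 and of the antisense genes Mhrt and Gm31251 in CPM on a log axis, with 1 point per heart (blue, sham; orange, HS). In HS heart 3, Myh7-201 is the highest of the 6 hearts at 154 CPM and the other 3 are the lowest, at 6.31, 45.7 and 7.32 CPM.

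Myh7b and Myl1 differed between the groups by less than the spread between hearts. Myh7b (ENSMUSG00000074652, chromosome 2, 155611212 to 155634307), a slow heavy chain gene that hosts a microRNA, was at 74.8, 53.1 and 61.6 CPM in the sham group, against 40.4, 50.0 and 72.4 CPM in the HS group. Its log2 fold change was -0.14 (standard error 0.28). Relative to Myh6 per length, it was lower in HS hearts 1 and 2 than in the sham hearts and higher in HS heart 3, at 2.54, 3.30 and 5.85 per 1000 against 4.11 to 5.74 per 1000.

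Myl1 (ENSMUSG00000061816, chromosome 1, 66924295 to 66945404), the essential light chain of fast skeletal muscle, was at 65.0, 62.0 and 53.1 CPM in the sham group, against 62.0, 79.8 and 42.3 CPM in the HS group. Its log2 fold change was 0.07 (standard error 0.19). Most of its counts, 88.6 to 96.4%, came from Myl1-202, which codes for 150 residues. Myl1-201, which starts upstream and codes for 188 residues, was at 1.09, 1.73 and 0.624 CPM in the sham group, against 3.99, 0.442 and 2.69 CPM in the HS group. It was therefore higher in HS hearts 1 and 3 than in the other 4 hearts, on 103 and 59 estimated counts against at most 40. This gap is far smaller than that of the atrial chains.

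A minor transcript of Myl2, 1 of the 56 transcripts of these genes, was lower in every HS heart than in every sham heart. The share of all transcripts with this order was not computed, so nothing is read from it. Myl2-202, which has another 3′ exon and codes for 176 instead of 166 residues, was at 56.1, 56.0 and 38.7 CPM in the sham group, against 11.8, 17.7 and 7.05 CPM in the HS group. Myl2-201 took 95.5 to 96.6% of Myl2 counts in all 6 hearts, and Myl2-202 at most 0.911%. The division of counts between them is an estimate whose error is unknown.

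The gene whose pattern over the 6 hearts was nearest to that of Myl7 was Myl4, among 10836 genes. These had passed the filter, had a log2 CPM that averaged 1 or more and had no Gm or Rik symbol. Likeness was measured as the root mean square difference of centred log2 CPM, which was 1.09 for Myl4 against a median of 5.40 over these genes. Next came Dkk3, a secreted protein of the dickkopf family (2.54), Car3, a carbonic anhydrase of fat and slow muscle (3.03), Npnt, a matrix protein (3.22), and Cdo1, a cysteine dioxygenase (3.30). Scd1, a fatty acid desaturase (3.39), Sbk3, a kinase gene (3.40), and Nppa, atrial natriuretic peptide (3.45), followed. All 8 were high in HS hearts 1 and 3, and the points share 6 libraries, so this is a description of these hearts. Mybphl and the atrial marker Sln had not passed the filter and were not compared with Myl7.

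Other markers of atrial cardiomyocytes were also high in HS hearts 1 and 3, though not evenly. The summed level of 14 markers was 263 to 298 CPM in the sham group and 3073, 325 and 1898 CPM in HS hearts 1 to 3. Nppa, which gave most of the sum in HS hearts 1 and 3, was at 105, 87.6 and 100.3 CPM in the sham group, against 2366, 131 and 1445 CPM in the HS group. Sln, sarcolipin, an inhibitor of the calcium pump in atria and skeletal muscle, had 1, 0 and 0 counts in the sham group, against 3141, 0 and 1582 in the HS group. Stard10, a lipid transfer protein gene, was at 5.50 to 5.90 CPM in the sham group, against 52.6, 5.81 and 36.9 CPM in the HS group. Dkk3 was at 0.856 to 4.13 CPM in the sham group, against 102, 0.902 and 95.0 CPM in the HS group.

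The HS hearts with high atrial chains differed from each other in some of these markers. Bmp10, a ligand made mainly in the right atrium of adult mice, had 0 counts in 5 hearts and 1604 counts in HS heart 3. Gja5, connexin 40 of atria and conduction system, was at 40.0 CPM in HS heart 1 and at 4.00 to 6.74 CPM in the others. Tbx5, a T-box factor, and Kcnj3, a subunit of the acetylcholine-gated potassium channel, were likewise highest in HS heart 1, at 45.6 and 206 CPM against at most 19.1 and 73.8 CPM elsewhere. Nr2f2, an orphan nuclear receptor of atrial identity, was at 8.46 to 11.1 CPM in the sham group, against 23.7, 12.0 and 21.7 CPM in the HS group. Cacna1d, a calcium channel subunit, was at 1.15 to 1.37 CPM in the sham group and 4.13, 1.65 and 4.15 CPM in the HS group. The remaining markers Kcnj5, Kcna5 and Nr2f1 had log2 fold changes of 0.08, -0.01 and 0.45. Of the 11 atrial markers with enough counts for a test, 0 passed in edgeR at an adjusted p of 0.05 and 5 had an unadjusted p under 0.05, all higher, against 8.83% of all genes. DESeq2 called 4 of them, Cacna1d, Dkk3, Nppa and Nr2f2, all higher, against 1.86% of all genes. The list was chosen with the atrial levels of these hearts known.

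**Figure D5:**
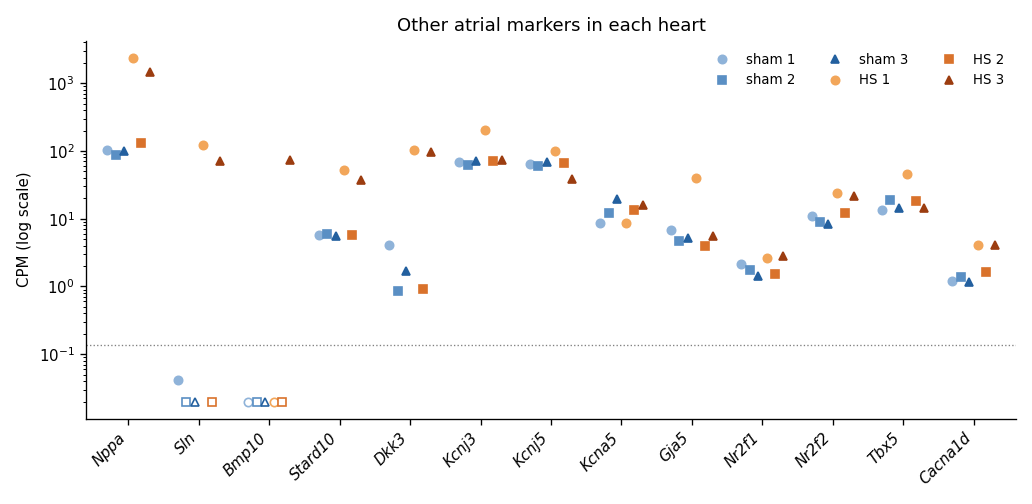
Level of 13 of the 14 other atrial markers in CPM on a log axis, with 1 point per heart (blue, sham; orange, HS). Open symbols at 0.02 stand for a count of 0 and the dotted line is the highest 3-count limit (0.136 CPM). Nppa, Sln, Stard10 and Dkk3 are high in HS hearts 1 and 3, Bmp10 in HS heart 3 alone, and Gja5 and Tbx5 in HS heart 1 alone.

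Markers of other cell types also differed between these hearts. All 8 smooth muscle and all 9 fibroblast markers had a log2 fold change above 0, and 7 of 8 ventricular markers one below 0, with 0 calls in edgeR. Over all genes tested, 51.3% were above 0 and 48.7% below 0. At an unadjusted p under 0.05 there were 8 smooth muscle, 5 fibroblast and 0 ventricular markers, and DESeq2 called 3, 3 and 0, all of them higher, against 8.83% and 1.86% of all genes. The smooth muscle markers summed to 222 to 267 CPM in the sham group and to 765, 313 and 654 CPM in HS hearts 1 to 3, and the fibroblast markers to 674 to 815 CPM and to 1311, 789 and 1657 CPM. The 7 adipocyte markers summed to 356 to 426 CPM and to 396, 287 and 359 CPM. Most of this sum was Fabp4, at 353, 425 and 361 CPM in the sham group, against 342, 286 and 351 CPM in the HS group. Every other adipocyte marker was highest in HS heart 1. Cfd, adipsin, was at 0.171 to 1.49 CPM in the sham group, against 19.1, 0.510 and 4.75 CPM in the HS group. Cidec was at 0.0428 to 0.784 CPM in the sham group, against 6.15, 0.0785 and 0.634 CPM in the HS group. The 8 ventricular markers summed to 6953 to 7270 CPM in the sham group and to 6061, 6561 and 3912 CPM in the HS group. Among them Fhl2, a LIM protein of the sarcomere, had a log2 fold change of -0.50 and Pln, the calcium pump inhibitor phospholamban, of -0.30. The 7 mesothelial markers summed to 6.61 to 11.9 CPM and to 24.4, 11.8 and 5.25 CPM, and the 7 pacemaker markers to 17.6 to 28.8 CPM and to 26.8, 26.9 and 34.9 CPM. All of these markers had counts in at least 1 heart. The 15 skeletal muscle markers summed to 28.2 to 39.5 CPM in the sham group and 30.0 to 49.2 CPM in the HS group, with Myh4 at 0 in all 6 hearts. The part of these cells in the levels of the myosin chains was not tested. In bulk tissue, fewer cells of a type and less RNA per cell cannot be told apart.

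The gene lists cover other myosins, their regulators and other genes of the sarcomere, and also the cell type markers described above. None of their genes was called in edgeR over all hearts. Of 119 genes in 12 lists, 91 were tested and 0 passed an adjusted p of 0.05 in edgeR, while an unadjusted p under 0.05 was reached by 23 with a higher level and 1 with a lower level, against 8.83% and 4.76% of all genes. DESeq2 called 11, all higher, against 1.86% of all genes: Acta2, Cacna1d, Cnn1, Col1a1, Col1a2, Col3a1, Dkk3, Myl9, Nppa, Nr2f2 and Tpm2. Only Myl9 and Tpm2 came from the lists of myosins and sarcomere genes, and Myl9 is also a smooth muscle marker. Without HS heart 2, edgeR called 17 of the listed genes, again all higher, and 287 over all genes. The median log2 fold change over the 91 genes, markers included, was 0.28, against 0.01 over all 14717.

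Among 18 other myosin chains, 9 were tested, with a median log2 fold change of 0.19, of which 3 had an unadjusted p under 0.05 and 1, Myl9, was called by DESeq2. Myl9 and Myh11, the regulatory light chain and the heavy chain of smooth muscle, had log2 fold changes of 1.77 (standard error 0.49, adjusted p = 0.282) and 1.94 (standard error 0.56, adjusted p = 0.288) in edgeR. Myh10, a non-muscle heavy chain, had 0.45 and Myh14 0.15. Of 10 tested kinases, phosphatases and assembly factors of myosin, Ppp1r12a, the targeting subunit of myosin phosphatase, had 0.37 and Mylk, the smooth muscle light chain kinase, 0.92. Mybpc2, the fast skeletal myosin-binding protein C, had 0.33, and Smyd1, a methyltransferase needed for thick filament assembly, -0.26. The median of these 10 genes was 0.03, with 2 at an unadjusted p under 0.05 and 0 called by DESeq2.

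Genes of thick filament partners differed little between the groups. Of 9 tested, 0 passed in edgeR, 0 at an unadjusted p under 0.05 and 0 in DESeq2, and their median was 0.02. The giant protein titin, encoded by Ttn, had a log2 fold change of 0.08, Obsl1, an obscurin-like protein, 0.12, and the muscle ubiquitin ligases Trim55 and Trim63 had -0.23 and -0.10. Of 13 tested genes of the thin filament, the median was 0.05, with 2 at an unadjusted p under 0.05 and 1, Tpm2, called by DESeq2. Tpm2, beta tropomyosin, had 1.64 (standard error 0.50, adjusted p = 0.295 in edgeR). Tnnc1, cardiac troponin C, had -0.21 (standard error 0.09, adjusted p = 0.344 in edgeR). In Tnnc1 all HS hearts were below all sham hearts. This order was found in 3 of the 13 genes, against 11.0% of all genes tested. The opposite order was found in 1 of them, against 9.06% of all genes tested. Acta1, skeletal actin, had 0.55 and Tnnt1, slow skeletal troponin T, 0.44. Tpm2 was at 8.05 to 12.6 CPM in the sham group, against 54.5, 11.9 and 30.3 CPM in the HS group, so it was higher in HS hearts 1 and 3 than in the other 4 hearts.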

How the data were processed

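RNA of 6 mouse hearts, 3 per group, was sequenced from poly(A)-selected libraries that keep the strand. Read cleaning by the authors used fastp and alignment used Hisat2. The deposited values are estimated counts for each transcript, without normalization. The submitters' processing notes name the build mm10. Not given in the sources used here are the counting program, its annotation, its strand setting and the versions of fastp and Hisat2.

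Estimated counts were summed per gene ID and rounded for the count tests, and CPM used the column totals. Levels per length divide each transcript by its GENCODE vM21 length, and transcripts with a length held 99.0 to 99.1% of counts. Genes passed filterByExpr (minimum count 10, minimum total 15) and were compared with the quasi-likelihood test of edgeR 4.0.16 after TMM normalization, with Benjamini-Hochberg adjustment over 14717 genes. DESeq2 1.42.0, other normalizations and filters, a replicate block and leaving out hearts were the alternatives. R 4.3.3, Python 3.11.15 and scipy 1.17.1 were used. The test step was checked on simulated data.

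The genes and lists were chosen with earlier results of these data known. Named were the 10 genes, up to 4 tested genes of each list with the smallest p, every atrial marker but 1 that is not reported here, the 8 genes most like Myl7 and genes that overlap a member. Log2 CPM used a prior count of 2.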

Additional observations from a re-analysis of the deposited data

How the results depend on the processing

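With HS heart 2 as the only HS heart, which is then assumed to vary like the sham hearts, the log2 fold changes of Myl7 and Myl4 turned to -0.91 and -0.062. The log2 ratios of group means turned to -0.82 for Myl7 to Myl2, to -0.13 for all 4 cardiac light chains (9.89 over all hearts) and to -0.25 for Myl7 to Myl4. Leaving out 1 heart at a time, the log2 fold change of Myl7 ran from 9.58 to 12.94, Myl4 from 7.77 to 9.16 and the ratio of Myl7 to Myl2 from 10.01 to 13.68, each highest without sham heart 1 and lowest without HS heart 1. Over the same settings, the log2 ratio of atrial to ventricular light chains ran from 9.19 to 11.08, Myl2 to Myh6 from -0.68 to -0.54 and Myh7 to Myh6 from -0.81 to 0.86. Myh7 to Myh6 was 0.47 over all hearts, -0.90 with HS heart 2 alone and 1.53 with the most abundant transcripts. The count of genes past the adjusted threshold was 9 in edgeR, 16 with library sizes only, 84 without the filter, 4 with at least 10 counts in every heart, 351 with DESeq2, 129 with HS heart 2 alone and 2 to 287 without 1 heart. Of listed genes, 0 passed in edgeR, 11 in DESeq2 and 0 to 17 without 1 heart. The share of higher calls was 88.9% of 9, against 75.0% of 16 with library sizes only and 77.8% of 9 with upper quartiles. It was 67.9% of 84 without the filter, 78.1% of 351 with DESeq2 and 52.7% of 93 without HS heart 3. All calls were higher with at least 10 counts in every heart, on 4 genes. The same held without sham heart 1, 2 or 3, on 3, 3 and 2 genes. With the replicate number as a block, 9 genes passed, and the ratios of group means, such as -0.63 for Myl2 to Myh6, cannot change under it. With the group mean of each gene taken off, log2 CPM of hearts with the same number correlated at -0.06, 0.13 and 0.01. Hearts of different number gave -0.15 to 0.13, so the numbers were not taken as pairs. Of 137 fold changes of the 10 genes and 81 ratios, 128 and 69 were labelled as within the spread between hearts. Those of Mybphl, which has no value in the main fit, were so labelled without a comparison. For Myl7 and Myl4 the spread includes the gap between HS heart 2 and the other HS hearts, so few values could exceed it. No conclusion is drawn from these counts. The cause was not tested. Depth limits the low values of Myl7, Myl4 and Mybphl, and groups of 3 were not checked for single outlying hearts.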
